A study of Mus musculus with 16 samples.

Results

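The 47 genes described here encode transcription factors with a homeodomain or a paired domain that lie outside the Hox clusters: 8 Lhx, 6 Dlx, 5 Irx, 5 Nkx and 7 Pax genes, Six2, Six3, Six4 and Six6, En1, En2, Emx1, Emx2, Msx1, Msx2, Barhl1 and Barhl2, and Pitx1, Gbx2, Otp and Vax1. They were taken by name, and all 47 of 47 were found once each among the 22367 protein-coding genes of the annotation, on 13 chromosomes, all autosomes. A member was said to carry a histone mark where an enriched region overlapped its body or lay within 5 kb of any of its annotated transcription start sites (TSSs). The 5′ end of a gene is its outermost annotated start.

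Most of these factors set up organs, body segments or neuronal types in the embryo and are known to be silent, or nearly so, in embryonic stem (ES) cells. H3K27Me3 is placed by Polycomb repressive complex 2 (PRC2) and marks such genes in broad domains. H3K4Me1 lies at enhancers and along the flanks of promoters, whether active or primed, and H3K27Ac lies at active promoters and enhancers. H3K27Ac and H3K27Me3 occupy the same lysine, so 1 histone tail cannot carry both.

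Mouse ES cells of both sexes, XX from females and XY from males, were profiled by chromatin immunoprecipitation and sequencing (ChIP-seq). They were hybrids of C57BL/6 and CAST/EiJ, kept at low passage in serum and LIF on inactivated embryonic fibroblasts of mixed sex that were depleted before harvest. Of the 16 libraries, 12 cover 2 XX and 2 XY lines with 3 marks each, and each sex has 1 IgG and 1 input library. The deposited values are 6 lists of enriched regions on mm9, 1 per sex and mark, which give a position and a width only. How the lines of a sex were combined was not stated in any source at hand, and the depth is unknown, so there is no SD, n or test for any value, and a region missing from a list says only that none was called.

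Across the 3 marks the lists hold between 18534 and 39404 regions in XX and between 15138 and 34800 in XY, and for each mark the XX list is the longer one. The cell label was checked with marker genes. Of 9 pluripotency genes found by name, 9 carried H3K27Ac in the XX list and 9 in the XY list, and 8 and 8 of them over the 5′ end. Of 10 fibroblast genes, 1 carried it in the XX list and 3 in the XY list, and 0 and 0 over the 5′ end. Of all genes 58.8% (XX) and 58.3% (XY) carried it, and 45.6% (XX) and 46.2% (XY) over the 5′ end. H3K4Me1 lay over the 5′ end of 2 (XX) and 5 (XY) of the 10 fibroblast genes, and of 44.7% (XX) and 41.5% (XY) of all genes. What remaining fibroblasts add to the member results was not tested.

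The 250 bases before the 5′ end are shown for the members that the results turn on, on the strand of each gene, with every CpG in capitals, because dense CpGs are the best known sequence feature of PRC2 target promoters. Six4 (chr12:74214402-74214651, minus strand) is the member whose 5′ end has no H3K27Me3. Irx1 (chr13:72101172-72101421, minus), Irx2 (chr13:72765995-72766244, plus), Irx3 (chr8:94325554-94325803, minus) and Irx5 (chr8:94881445-94881694, plus) have H3K27Ac over the 5′ end in a single list. Pax8 (chr2:24331120-24331369, minus) has the narrowest H3K27Me3 domain that covers a 5′ end.
Six4: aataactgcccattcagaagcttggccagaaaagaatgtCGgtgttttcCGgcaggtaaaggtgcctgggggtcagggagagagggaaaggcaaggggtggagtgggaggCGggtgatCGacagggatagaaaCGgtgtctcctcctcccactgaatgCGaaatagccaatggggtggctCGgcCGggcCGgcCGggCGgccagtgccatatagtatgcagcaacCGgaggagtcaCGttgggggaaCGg
Irx1: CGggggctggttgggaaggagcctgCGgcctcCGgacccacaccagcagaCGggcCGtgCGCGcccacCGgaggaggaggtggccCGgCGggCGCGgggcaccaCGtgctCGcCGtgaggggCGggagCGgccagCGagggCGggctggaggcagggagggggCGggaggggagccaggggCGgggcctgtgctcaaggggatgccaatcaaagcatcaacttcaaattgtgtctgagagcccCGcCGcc
Irx2: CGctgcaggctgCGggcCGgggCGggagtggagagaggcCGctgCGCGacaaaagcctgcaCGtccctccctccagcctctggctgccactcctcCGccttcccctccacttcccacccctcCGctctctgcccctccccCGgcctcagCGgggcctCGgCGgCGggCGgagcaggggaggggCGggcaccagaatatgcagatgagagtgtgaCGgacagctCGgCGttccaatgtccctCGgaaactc
Irx3: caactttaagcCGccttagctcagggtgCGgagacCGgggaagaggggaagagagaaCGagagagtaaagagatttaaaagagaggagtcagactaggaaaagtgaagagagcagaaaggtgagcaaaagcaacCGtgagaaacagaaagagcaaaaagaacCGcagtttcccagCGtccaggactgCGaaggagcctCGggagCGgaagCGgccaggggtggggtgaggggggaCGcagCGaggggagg
Irx5: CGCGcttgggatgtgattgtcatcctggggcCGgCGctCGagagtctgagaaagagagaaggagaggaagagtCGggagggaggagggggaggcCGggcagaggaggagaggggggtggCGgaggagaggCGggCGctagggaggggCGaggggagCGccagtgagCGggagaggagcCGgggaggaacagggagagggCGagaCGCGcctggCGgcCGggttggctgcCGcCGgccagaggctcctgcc
Pax8: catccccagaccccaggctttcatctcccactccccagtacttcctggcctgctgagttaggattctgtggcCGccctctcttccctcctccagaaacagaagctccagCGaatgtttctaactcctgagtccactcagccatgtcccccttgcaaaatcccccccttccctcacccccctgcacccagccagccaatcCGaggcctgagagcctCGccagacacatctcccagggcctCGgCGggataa
These stretches hold 14 CpGs for Six4, 23 for Irx1, 21 for Irx2, 13 for Irx3, 21 for Irx5 and 6 for Pax8. The median was 14 CpGs over the 47 members and 8 over all protein-coding genes. At least 1 CG stood in the stretch of 47 of 47 members and of 92.5% of all genes.

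H3K27Me3 covered nearly every member in both sexes. In the XX list 47 of 47 members carried it, and 40.5% of all protein-coding genes did. In the XY list 46 of 47 carried it, with 35.4% of all genes. Over the 5′ end itself it lay at 46 members in the XX list and at the same 46 in the XY list, against 23.2% of all genes in the XX list and 19.4% in the XY list. Six4 lacked it over the 5′ end in both lists. Six4 was also the 1 member with H3K27Me3 in the XX list only, and 0 members had it in the XY list only, where 8.9% of all genes were XX-only and 3.8% XY-only.

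H3K4Me1 was as widespread, and H3K27Ac was rare. H3K4Me1 lay at 47 members in the XX list and 46 in the XY list, with 67% of all genes in the XX list and 65.4% in the XY list. H3K27Ac lay at 7 members in the XX list and 8 in the XY list, although 58.8% of all genes carried it in the XX list and 58.3% in the XY list. Neither list placed H3K27Ac at 37 of the 47 members or at 38.6% of all genes. H3K27Me3 without any H3K27Ac was the state of 40 members in the XX list and 39 in the XY list, and of 15.3% (XX) and 14.1% (XY) of all genes.

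**Figure D1:**
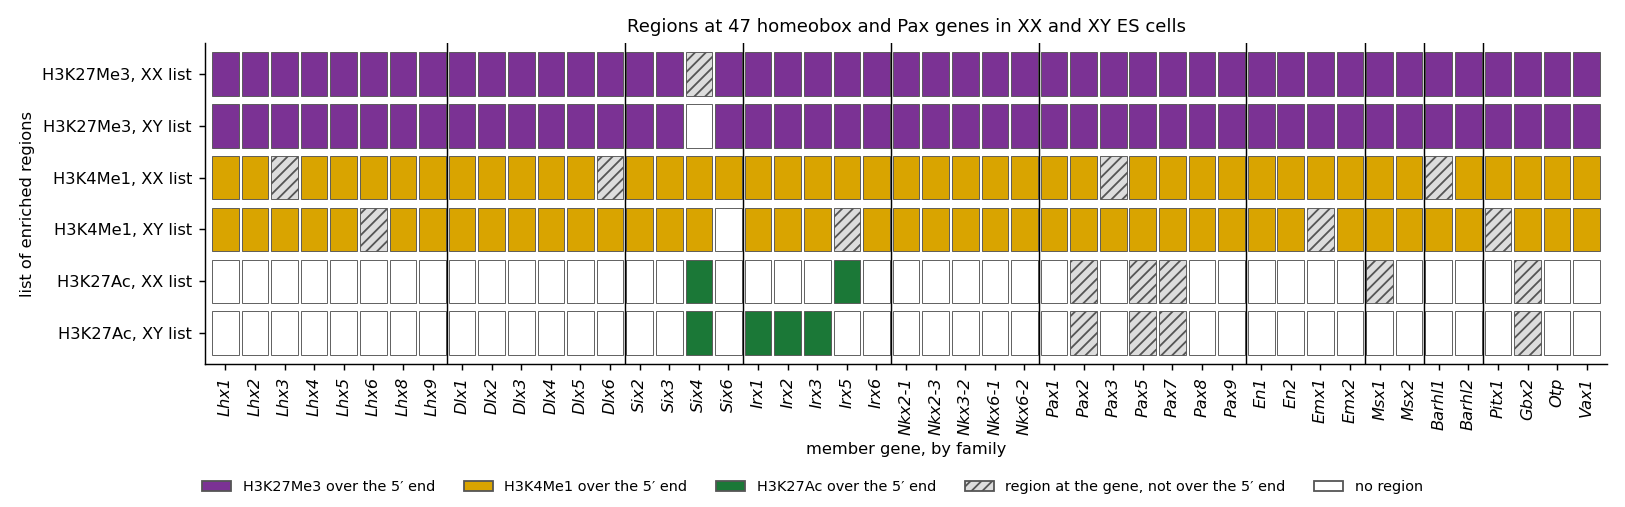
Each column is a member, by family, and each row is 1 list of regions, XX above XY for each mark. Filled cells have a region over the 5′ end, hatched cells have a region at the gene that misses the 5′ end, and white cells have none. H3K27Me3 fills 46 of 47 columns in both sexes, and H3K27Ac appears at 10 members in all.

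Six4, which acts in muscle, kidney and sensory development, carried H3K27Ac and H3K4Me1 over its 5′ end in both sexes. It lies on the minus strand at chr12:74201246-74214401. H3K27Ac covered its 5′ end over 8.40 kb in the XX list and 5.80 kb in the XY list, a stretch that also held both of its annotated TSSs. Another H3K27Ac region lay inside the gene, 2.60 kb (XX) and 2.40 kb (XY) wide. The widest, 20.2 kb (XX) and 19.6 kb (XY), ran from the last exon into sequence downstream where no other gene is annotated. H3K4Me1 formed 1 block over all of these, 37.6 kb in the XX list and 37.0 kb in the XY list. The only H3K27Me3 at Six4 was an XX region of 3.00 kb, chr12:74215201-74218199, between 3.80 and 0.80 kb upstream of the 5′ end, and 0% of the gene body was covered in either list. It was narrower than the median region of the XX list (4.20 kb). The other members of its family, Six2 of nephron progenitors and Six3 and Six6 of the forebrain and eye, carried H3K27Me3 over their whole bodies in both lists and no H3K27Ac. Their widest regions were 19.0 kb (XX) and 22.4 kb (XY) at Six2, 39.0 kb (XX) and 59.0 kb (XY) at Six3, and 17.4 kb (XX) and 14.4 kb (XY) at Six6.

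The Irx genes accounted for every other case of H3K27Ac over a 5′ end. These Iroquois factors pattern the neural plate, heart and limbs, and sit in gene clusters: Irx1 and Irx2 on chromosome 13, and Irx3, Irx5 and Irx6 on chromosome 8. H3K27Ac covered the 5′ end of 2 members in the XX list, Six4 and Irx5, and of 4 in the XY list, Six4, Irx1, Irx2 and Irx3, where 45.6% of all genes were covered in the XX list and 46.2% in the XY list. At the gene as a whole H3K27Ac was found in the XX list only at Irx5 and Msx1, and in the XY list only at Irx1, Irx2 and Irx3. These 2 and 3 members stand beside 3.1% of all genes with XX-only and 2.55% with XY-only H3K27Ac. Over the 5′ end, 1 XX-only and 3 XY-only members stand beside 2.39% XX-only and 2.95% XY-only of all genes. Irx6 had no H3K27Ac.

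The acetylated Irx1, Irx2 and Irx5 regions lay wholly inside H3K27Me3. The Irx1 region, chr13:72099001-72101599, was 2.60 kb wide in the XY list and spanned the first 2.17 kb of the gene, 511 bp of it exonic and 1660 bp intronic. The Irx2 region, chr13:72765001-72768599, was 3.60 kb wide in the XY list and held 5 of the 7 annotated TSSs of Irx2. Both lay 100% under H3K27Me3 of the same list. The Irx5 region, chr8:94879001-94883599, was 4.60 kb wide in the XX list, 100% under H3K27Me3, and also overlapped 4933436C20Rik, a protein-coding model next to Irx5.

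At Irx3 the acetylation went together with a break in H3K27Me3. The XY H3K27Ac region, chr8:94321601-94328599, was 7.00 kb wide, covered the whole gene and reached 3.05 kb upstream, over the annotated non-coding D230002A01Rik, and 88.6% of it lay under H3K27Me3. The XX list held a single H3K27Me3 region of 16.0 kb here. In the XY list that stretch was split into regions of 6.80 and 9.20 kb, with a gap from 0.85 to 0.05 kb upstream of the 5′ end, inside the acetylated stretch. At Irx5 it was H3K4Me1 that parted, and in the XY list, which had no H3K27Ac there. The XX list had 1 H3K4Me1 region of 9.60 kb over the 5′ end, and the XY list had 2.40 kb that ended 1.90 kb upstream and 9.0 kb that began 0.91 kb downstream of it. Irx1 and Irx2 kept a single H3K27Me3 region in both lists, of 18.0 kb (XX) and 17.0 kb (XY) at Irx1 and of 22.0 kb (XX) and 24.0 kb (XY) at Irx2.

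**Figure D2:**
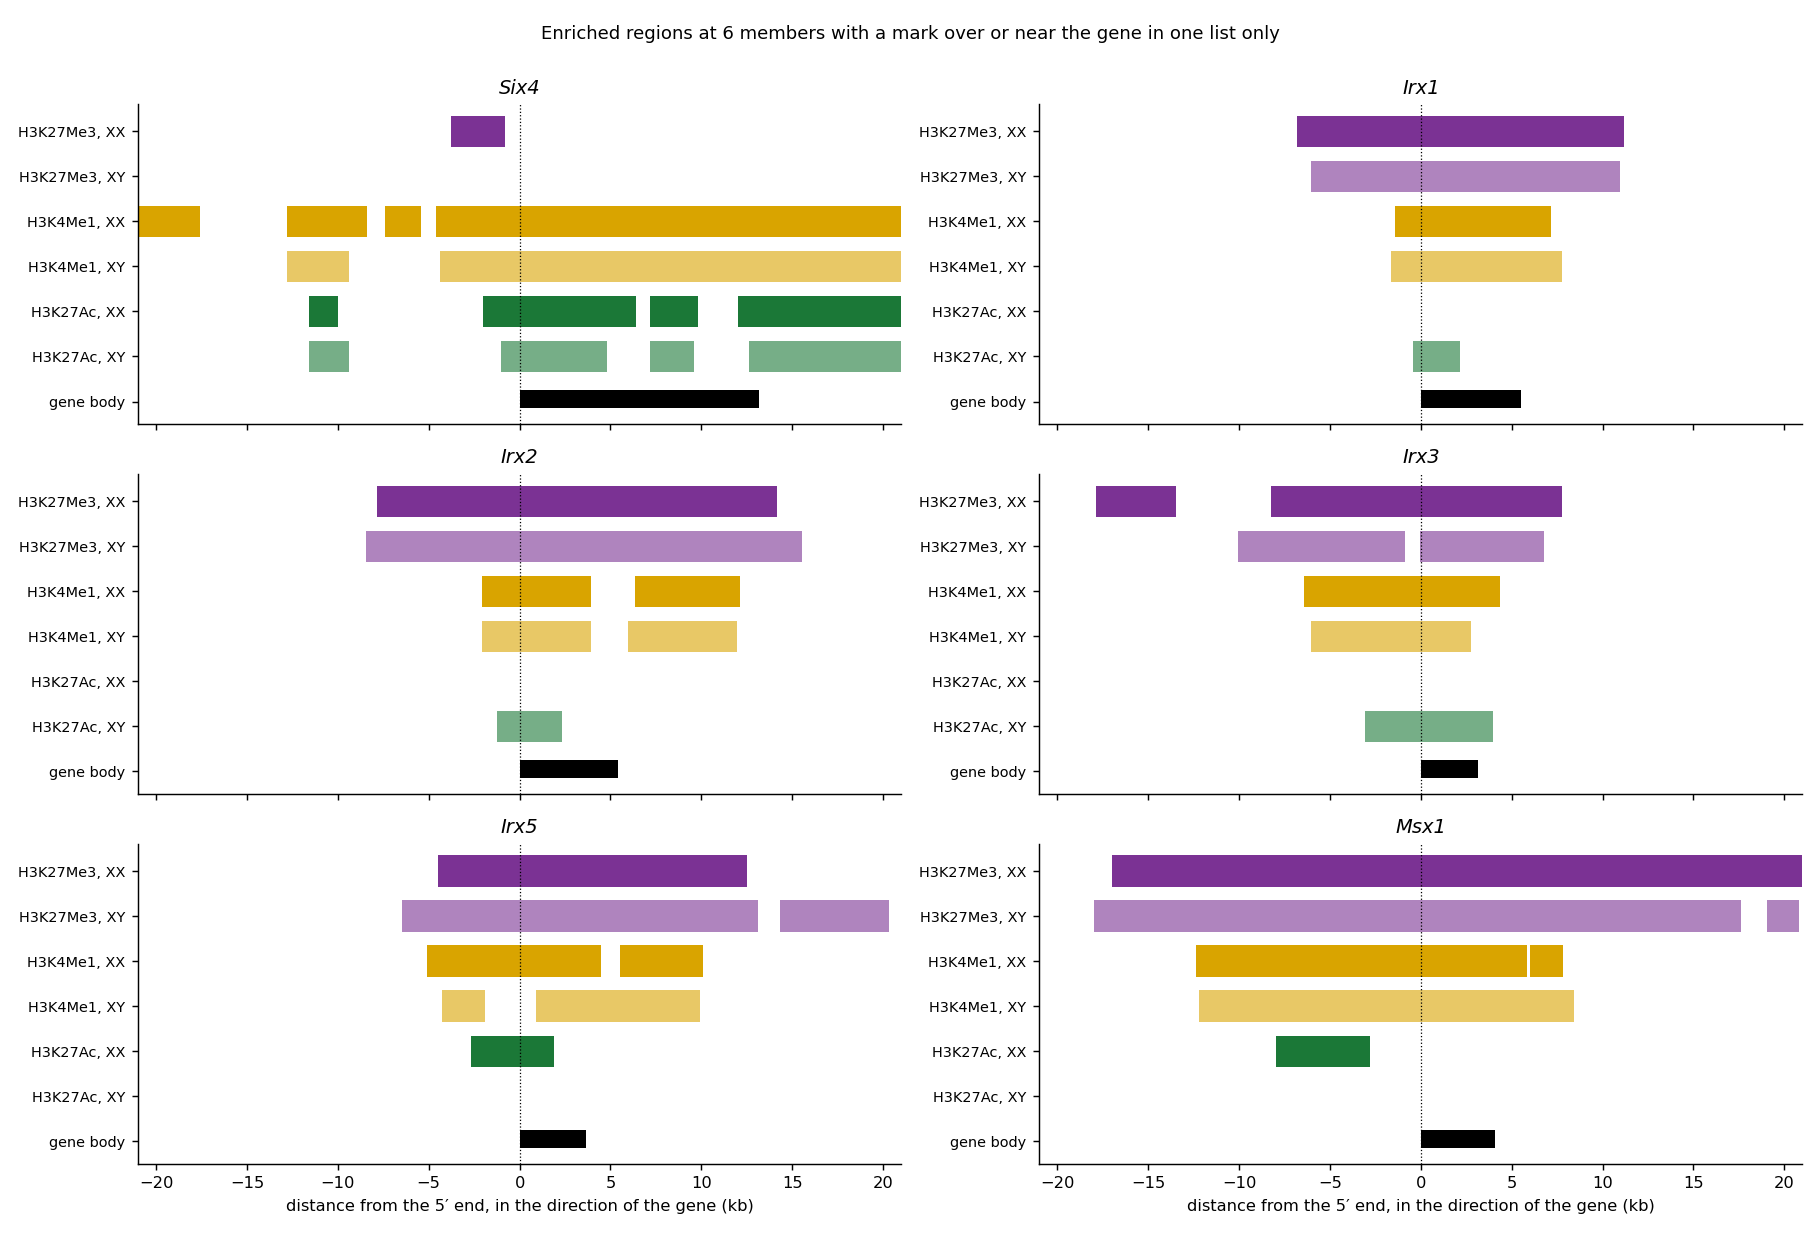
Enriched regions around 6 members, as distance from the 5′ end in kb with upstream negative, for the 3 marks with XX above XY, and the gene body in black. Bars cut at 21 kb run on beyond the map. Irx1, Irx2 and Irx3 show H3K27Ac over the 5′ end in the XY row only, Irx5 in the XX row only, and Six4 in both rows.

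The remaining H3K27Ac lay away from the 5′ ends. Msx1, a regulator of craniofacial, tooth and limb growth, had an XX-only region of 5.20 kb (chr5:38218601-38223799), between 7.98 and 2.78 kb upstream of the gene and 100% under H3K27Me3. Gbx2, a hindbrain factor that is also known as a target of LIF signalling in mouse ES cells, had H3K27Ac inside the gene in both lists, 1.60 kb (XX) and 2.20 kb (XY) wide. It began 2.07 kb (XX) and 1.27 kb (XY) downstream of the 5′ end, lay 100% under H3K27Me3 in each list, and overlapped the protein-coding model D130058E05Rik. The 5′ end of Gbx2 was not acetylated.

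The long Pax genes held the others, all in introns and none over an annotated TSS. Pax2, needed for kidney and optic development, had a region of 3.40 kb (XX) and 3.00 kb (XY) that began 50.7 kb (XX) and 51.1 kb (XY) into the gene. Pax7, of neural crest and muscle stem cells, had 3.60 kb (XX) and 6.40 kb (XY) beginning 63.4 kb (XX) and 61.4 kb (XY) in. Pax5, of B cells and the midbrain, had 3.80 kb (XX) and 3.60 kb (XY) near its 3′ end, with 0% under H3K27Me3. A further XX-only region of 3.40 kb at Pax5 (chr4:44679201-44682599) lay 100% under H3K27Me3. The Pax2 region lay 100% (XX) and 66.6% (XY) under H3K27Me3, and the Pax7 region 100% (XX) and 90.6% (XY). Of all acetylated bases at the members, 40.5% (XX) and 39.9% (XY) lay under H3K27Me3 of the same list, beside 7.74% (XX) and 6.70% (XY) over the whole lists. Nearly all members carried H3K27Me3, which makes overlap likelier at them than over the whole lists. Acetylated regions at other genes with H3K27Me3 were not compared. Six4 alone held 31.2 kb (XX) and 27.8 kb (XY) of the acetylated bases, with 1199 bp under H3K27Me3 in XX and none in XY. At the 5′ end H3K27Me3 and H3K27Ac met at 1 member in the XX list and 3 in the XY list, with 6.17% (XX) and 4.81% (XY) of all genes. Overlap of 2 lists does not show that both marks were on the same chromosomes or in the same cells.

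H3K4Me1 lay mostly inside the H3K27Me3 domains. Of the H3K4Me1 bases at the members 86.3% (XX) and 88.2% (XY) were under H3K27Me3, beside 16.8% (XX) and 13.9% (XY) over the whole lists. Nearly every member had H3K27Me3 over its 5′ end, and other genes with that mark were not compared. H3K4Me1 covered the 5′ end of 43 members in the XX list and 42 in the XY list, and 44.7% (XX) and 41.5% (XY) of all genes. Both marks covered the 5′ end of 42 members in the XX list and 41 in the XY list, and 15.8% (XX) and 12.8% (XY) of all genes. The median of the widest H3K4Me1 region was 8.80 kb (XX) and 10.1 kb (XY).

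As a share of all genes, those without the mark included, H3K4Me1 in 1 list only at the 5′ end was about as common at the members as elsewhere. As a share of the genes with the mark there, it was less common at the members. It was over the 5′ end in both lists at 38 members, in the XX list only at Lhx6, Six6, Irx5, Emx1 and Pitx1, and in the XY list only at Lhx3, Dlx6, Pax3 and Barhl1. These 5 XX-only and 4 XY-only members stand beside 10.2% XX-only and 7% XY-only of all genes. Among these Six6 alone had no H3K4Me1 anywhere in the other list. It was the 1 member with an XX-only call at the gene, and 0 had an XY-only call, where 4.54% of all genes were XX-only and 2.96% XY-only. The Six6 region was 6.00 kb wide, chr12:74038001-74043999, and overlapped the neighbouring 4930447C04Rik. Pax3, of neural crest and muscle progenitors, had an XY-only H3K4Me1 region of 10.0 kb over its 5′ end, which was the widest one-list region of any mark at a member.

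By region, 9 of 79 H3K4Me1 regions at the members (11.4%) met no region of the other list in XX and 10 of 77 (13.0%) in XY, beside 21.8% (XX) and 13.1% (XY) of the whole lists. Besides those over a 5′ end, XX-only H3K4Me1 regions lay at Lhx9, Nkx2-3 and Pax5, with 3 at Pax7, and XY-only ones at Lhx9, Pax1, Pax2, Pax7, En2, Emx1 and Otp, and they were between 1.40 and 7.00 kb wide. For H3K27Me3 the share was 1 of 67 regions (1.49%) in XX, at Six4, and 4 of 72 (5.56%) in XY, beside 39.8% (XX) and 23.6% (XY) of the whole lists. These member regions had a median width of 17.0 kb (XX) and 17.4 kb (XY), beside 4.20 kb (XX) and 4.40 kb (XY) over the lists. A wide region meets the other list more easily, since 1 bp of overlap counts, and width was not matched for any mark. For H3K27Ac the share was higher at the members, on few regions. It was 3 of 10 (30%) in each list, beside 19.1% (XX) and 10.4% (XY) of the whole lists. The 4 XY-only H3K27Me3 regions lay inside Lhx9, Pax2 and Pax3, 2 of them in Pax3. The widest, at Pax3, was 7.60 kb.

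The H3K27Me3 domains of the members were broad. The widest region at a member had a median of 25.0 kb in the XX list and 28.5 kb in the XY list. Over all protein-coding genes with the mark it was 7.20 kb (XX) and 6.60 kb (XY), and the median region of the lists was 4.20 kb (XX) and 4.40 kb (XY). Further homeobox and Pax genes with the mark, described below, had a median widest region of 22.2 kb (XX) and 20.6 kb (XY). A region of at least 20 kb lay at 31 members in the XX list and 33 in the XY list, and at 4.14% (XX) and 2.9% (XY) of all genes. Because Dlx1 and Dlx2 share a region, as do Dlx5 and Dlx6, the 46 covered 5′ ends fell into 44 regions in each list. Of these 14 belonged to the 188 widest regions of the XX list and 22 to the 155 widest of the XY list, which is about the widest 1% of each. The whole gene body lay under H3K27Me3 at 34 members in the XX list and 33 in the XY list, and at 5.6% (XX) and 4.39% (XY) of all genes, with gene length not matched. Of the domains, 3 held the 5′ end of a further protein-coding gene, those of Six6, Irx5 and Gbx2, in both lists.

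**Figure D3:**
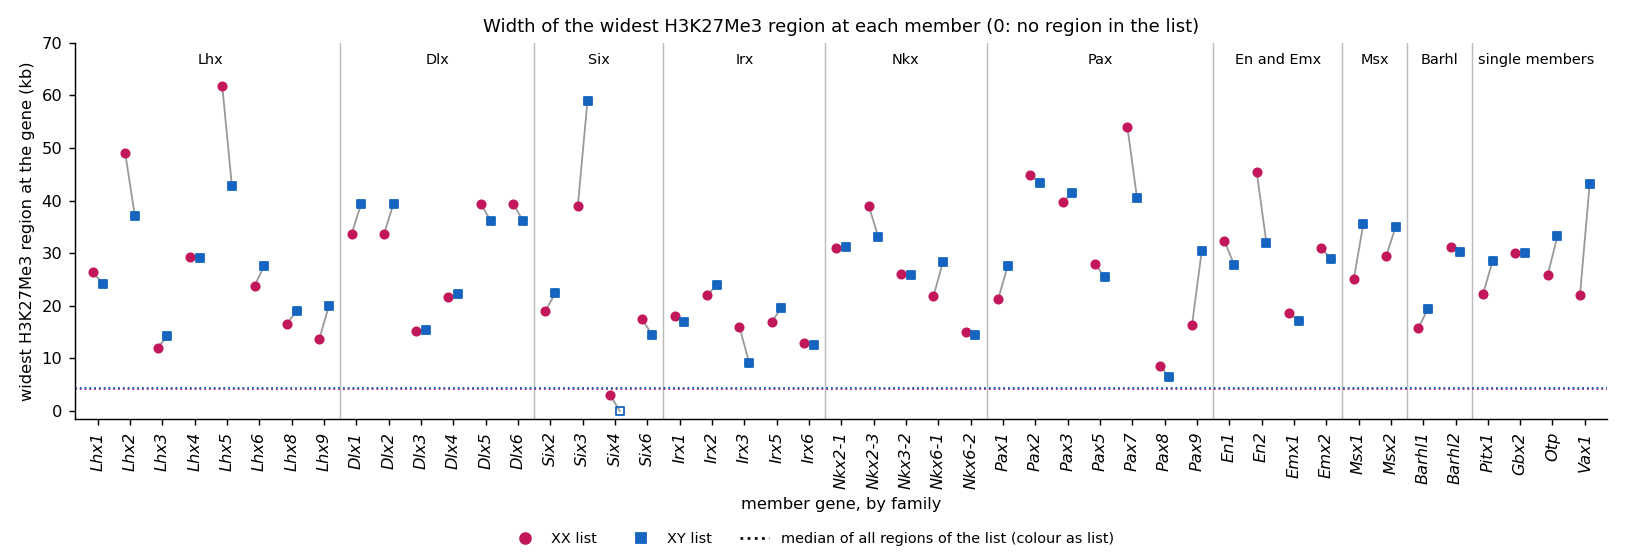
Width in kb of the widest H3K27Me3 region at each member, XX (red circles, left) and XY (blue squares, right), grouped by family. Dotted lines are the median width of all regions of each list. All members except Six4 lie above these lines in both lists.

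Widths ranged widely within families. The Lhx genes, LIM-homeodomain factors of the head organiser, forebrain, pituitary and motor neurons, had a median of 25.1 kb (XX) and 25.9 kb (XY). Lhx5, of the forebrain, had 61.8 kb (XX) and 42.8 kb (XY), and Lhx3, of the pituitary and motor neurons, had 12.0 kb (XX) and 14.2 kb (XY). Lhx2, of the forebrain and eye, had 49.0 kb (XX) and 37.0 kb (XY). The others were Lhx1 (26.4 kb in XX, 24.2 kb in XY), Lhx4 (29.2 kb in XX, 29.0 kb in XY), Lhx6 (23.8 kb in XX, 27.6 kb in XY), Lhx8 (16.6 kb in XX, 19.0 kb in XY) and Lhx9 (13.6 kb in XX, 20 kb in XY).

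The Dlx genes, Distal-less factors of the forebrain, pharyngeal arches and limbs, are arranged in convergent pairs. Dlx1 and Dlx2 shared a domain of 33.6 kb (XX) and 39.4 kb (XY), and Dlx5 and Dlx6 shared one of 39.4 kb (XX) and 36.2 kb (XY). In both lists 100% of the 9.43 kb between Dlx1 and Dlx2 and of the 9.24 kb between Dlx6 and Dlx5 was covered. The pair of Dlx3 and Dlx4 was split. Dlx3 had 15.2 kb (XX) and 15.4 kb (XY) and Dlx4 had 21.6 kb (XX) and 22.2 kb (XY), with 2.20 kb (XX) and 0.80 kb (XY) free of the mark between them. No other neighbours among the members shared a domain. Six3 and Six2, 52.5 kb apart, had separate domains in both lists, and H3K27Me3 covered 92.4% (XX) and 94.3% (XY) of the space between the genes. The Irx neighbours lay between 313 and 665 kb apart and had at most 10.1% (XX) and 9.54% (XY) of the space covered.

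The Irx family had the smallest median among families with 3 or more members, 17.0 kb in both lists, and Irx2 was its widest member in both lists. Irx6 was the narrowest in XX, with 13.0 kb (XX) and 12.6 kb (XY), and the split Irx3 was the narrowest in XY, with 16.0 kb (XX) and 9.20 kb (XY). Irx5 had 17.0 kb (XX) and 19.6 kb (XY). The Nkx genes, of which Nkx2-1 acts in lung and thyroid, Nkx2-3 in gut and spleen, Nkx3-2 in the axial skeleton and Nkx6-1 and Nkx6-2 in motor neurons, had a median of 26.0 kb (XX) and 28.4 kb (XY). Nkx2-3 was the widest of them at 39.0 kb (XX) and 33.0 kb (XY), and Nkx6-2 the narrowest at 15.0 kb (XX) and 14.4 kb (XY). Between them were Nkx2-1 (31.0 kb in XX, 31.2 kb in XY), Nkx3-2 (26.0 kb in XX, 25.8 kb in XY) and Nkx6-1 (21.8 kb in XX, 28.4 kb in XY). En1, En2, Emx1 and Emx2, of the midbrain and cortex, had a median of 31.7 kb (XX) and 28.3 kb (XY), and each was wider in XX as listed. En1 had 32.4 kb (XX) and 27.8 kb (XY) and Emx2 31.0 kb (XX) and 28.8 kb (XY). Emx1 had 18.6 kb (XX) and 17.2 kb (XY), but 18.6 kb (XX) and 30.4 kb (XY) once regions up to 1 kb apart were joined. Msx1 and Msx2 had 25.0 and 29.4 kb in XX and 35.6 and 35.0 kb in XY. Barhl1 had 15.8 kb (XX) and 19.4 kb (XY), and Barhl2 31.2 kb (XX) and 30.2 kb (XY). Pitx1, which specifies the hindlimb, had 22.2 kb (XX) and 28.6 kb (XY). Otp, of the hypothalamus, had 25.8 kb (XX) and 33.2 kb (XY), and Gbx2 had 30.0 kb in both lists.

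The Pax genes were long, and 4 of the 7, Pax2, Pax3, Pax5 and Pax7, were covered in several pieces in both lists. Their median length was 82.2 kb, and H3K27Me3 covered a median of 48.9% (XX) and 55.2% (XY) of the body, where the members as a whole had a median of 100%. The most regions at a Pax gene were 8 in XX and 9 in XY, both at Pax2, and Pax1, Pax8 and Pax9 had 1 in each list. A region lay over the 5′ end in all 7. It was 44.8 kb (XX) and 43.4 kb (XY) at Pax2, 39.8 kb (XX) and 41.4 kb (XY) at Pax3, 54.0 kb (XX) and 40.4 kb (XY) at Pax7, 28.0 kb (XX) and 25.4 kb (XY) at Pax5, and 21.2 kb (XX) and 27.6 kb (XY) at Pax1, of the sclerotome. Pax8, of the thyroid and kidney, was the narrowest with 8.60 kb (XX) and 6.40 kb (XY), which covered 9.66% (XX) and 8.21% (XY) of its 55.0 kb body. Pax5 had the next lowest share of its body covered, 19.4% (XX) and 24.2% (XY) of 180.3 kb.

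The domains reached further downstream of the 5′ end than upstream of it. The median member was 6.88 kb long, shorter than the median downstream arm, so that arm was not confined to the gene. From the 5′ end they extended a median of 8.32 kb (XX) and 9.92 kb (XY) upstream and 15.2 kb (XX) and 15.6 kb (XY) downstream, and the upstream arm was the longer one at 9 members in the XX list and 9 in the XY list. At 10 kb upstream 40.4% (XX) and 55.3% (XY) of the members were covered, and at 10 kb downstream 83.0% (XX) and 87.2% (XY). For all genes the values were 11.7% (XX) and 9.30% (XY) upstream and 9.64% (XX) and 7.54% (XY) downstream. H3K4Me1 of the members was narrower around the start than H3K27Me3, with 14.9% (XX) and 12.8% (XY) of the members covered at 10 kb upstream and 34.0% (XX) and 51.1% (XY) at 10 kb downstream. For all genes these were 24.9% (XX) and 22.9% (XY) upstream, above the members, and 30.0% (XX) and 27.5% (XY) downstream. At 5 kb downstream it covered 51.1% (XX) and 70.2% (XY) of the members and 35.3% (XX) and 34.1% (XY) of all genes. Over all genes H3K27Ac peaked near the 5′ end, at 45.9% (XX) and 46.3% (XY), and over the members it stayed at or below 6.38% (XX) and 10.6% (XY) at every position within 20 kb.

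**Figure D4:**
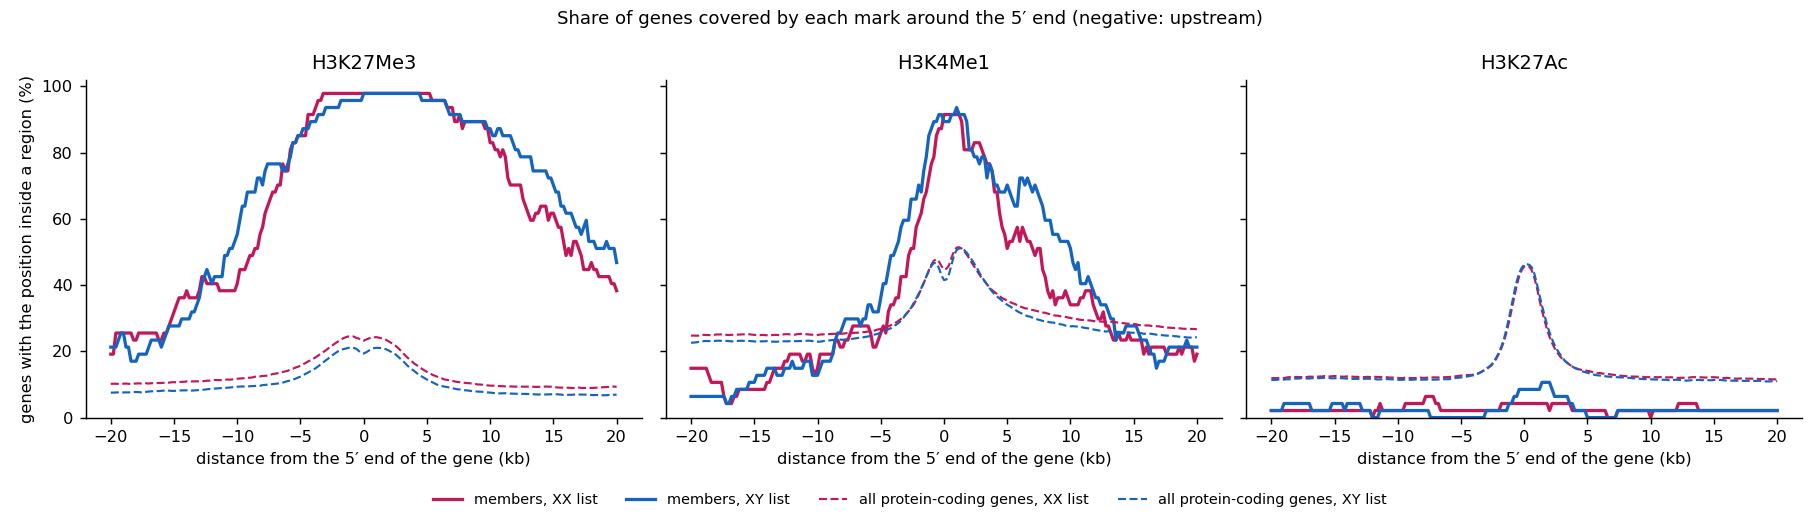
Percent of genes whose position at each distance from the 5′ end (kb, upstream negative) lies inside a region, for members (solid) and all protein-coding genes (dashed), XX in red and XY in blue. H3K27Me3 of the members forms a plateau at 97.9% around the 5′ end, and the H3K27Ac curve of the members has at most 6.38% (XX) and 10.6% (XY), where that of all genes peaks at 45.9% (XX) and 46.3% (XY) near the 5′ end.

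Between the sexes the domains of the members overlapped widely, and which list had the wider region depended on how neighbouring regions were joined. Of 46 members with H3K27Me3 in both lists, 22 had the wider region in the XX list, 23 in the XY list, and Gbx2 was equal. With regions up to 1 kb apart merged, the wider one was in XX at 18 members and in XY at 27, and with regions up to 5 kb apart merged, in XX at 16 and in XY at 28. The median log2 ratio of XX over XY was -0.0046, and 42 of 46 were within 1.5-fold. Over 7069 protein-coding genes with the mark in both lists the median was 0.15, with 60.3% wider in XX and 36.4% wider in XY, and 4416 were within 1.5-fold. The bases under H3K27Me3 in both lists made up a median of 84.7% of those in either at the members (range 50.9 to 98.7%). Over the 7069 genes the median was 60.9%. Width was not matched in this comparison.

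The largest differences in the widest region went both ways. Vax1, of the ventral forebrain and optic nerve, had 22.0 kb in the XX list and 43.2 kb in the XY list (log2 ratio -0.97). Pax9, of the sclerotome and teeth, had 16.4 kb (XX) and 30.4 kb (XY), with a log2 ratio of -0.89. Six3 (-0.60), Lhx9 (-0.56) and Msx1 (-0.51) came next, and Six3 had 39.0 kb (XX) and 59.0 kb (XY). In the other direction Irx3 had a log2 ratio of 0.80, Lhx5 0.53, En2 0.50 with 45.4 kb (XX) and 32.0 kb (XY), Pax8 0.43 and Pax7 0.42.

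Several of these differences were places where 1 list broke a domain into neighbours. Regions of 1 list that follow each other with 1 bp between them occur 107 times in the XX H3K27Me3 list and 67 times in the XY list, and at Msx1 joining them gave 43.0 kb (XX) and 35.6 kb (XY), which turned the direction round. The same joining turned Lhx1 round, to 26.4 kb (XX) and 31.2 kb (XY). Joining regions up to 1 kb apart turned 8 members: Lhx1, Lhx4, Six3, Six6, Irx3, Pax2, Emx1 and Msx1. The bases covered were therefore also counted over the joint span, the stretch from the outermost start to the outermost end of the regions that hold the 5′ end in either list, a measure chosen after seeing the data. On that count all 46 were within 1.5-fold, 20 with more in XX, 25 with more in XY and 1 equal. The span stops at the listed edges and adds back pieces inside it, so H3K27Me3 beyond those edges is left out. The smaller spread is thus partly set by the measure. Lhx3 had 12.0 kb (XX) and 14.2 kb (XY) over the span. With regions up to 1 kb apart joined, Lhx3 had 12.0 kb (XX) and 25.4 kb (XY). Over the joint span Six3 had 58.8 kb (XX) and 59.0 kb (XY) of 59.2 kb. Irx3 had 16.0 kb (XX) and 14.2 kb (XY), Lhx9 18.8 kb (XX) and 20 kb (XY), and En2 45.4 kb (XX) and 41.8 kb (XY).

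The largest differences over the joint span were smaller. Pax8 had 8.60 kb (XX) and 6.40 kb (XY) and a log2 ratio of 0.43, Pax7 0.42, Lhx5 0.38, Pax1 -0.38, Pitx1 -0.37 and Otp -0.36. Lhx5 had the same upstream edge in both lists, 24.5 kb before the 5′ end, and the domain ran 37.3 kb downstream in the XX list and 18.3 kb in the XY list. At Pax7 it was the upstream arm that differed, 24.8 kb (XX) and 12.8 kb (XY). Both edges lay within 2 kb of each other at 18 of 46 members. With 1 list per sex, none of these differences can be set against the spread between lines.

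**Figure D5:**
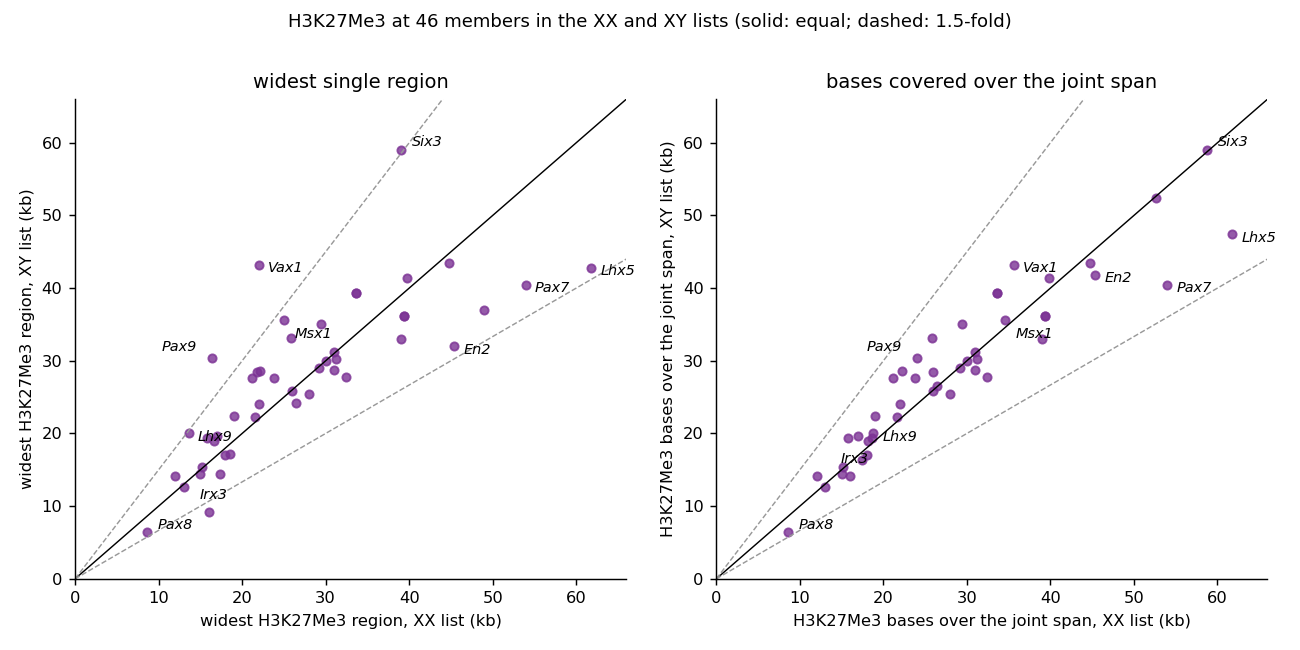
H3K27Me3 at 46 members, XX list on the x axis and XY list on the y axis, in kb, as the widest single region (left) and as bases covered over the joint span of both lists' domains (right). The solid line marks equal values and dashed lines 1.5-fold. On the left 42 members lie within the dashed lines, and on the right all 46.

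CpGs were dense around the 5′ ends of most members. The 2 kb centred on the 5′ end held a median of 104 CpGs at the members and 61 at all genes, and 86 at genes with H3K27Me3 over the 5′ end in both lists. The ratio of observed to expected CpGs was 0.622 at the members, 0.468 at all genes and 0.561 at those genes with H3K27Me3. Lhx3 had the fewest CpGs, 33, and Pax8 had 40, and both were among the 5 narrowest XX domains. Six2 had the most, 195, with a domain of 19.0 kb (XX) and 22.4 kb (XY). Six4, with 103 CpGs and a ratio of 0.672, was near the median of the members. Across the 46 members with a domain in both lists, Pearson's r between CpG number and width was 0.095 (XX) and -0.049 (XY), given as a description over genes, which are not replicates.

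Other genes of the same classes carried H3K27Me3 as widely. Of 66 further homeobox and Pax genes 62 were found by name, and 61 of them carried H3K27Me3 in the XX list and 61 in the XY list. H3K27Ac lay at 16 (XX) and 15 (XY) of the 62, and H3K4Me1 at 56 (XX) and 57 (XY). Their median log2 ratio of XX over XY width was 0.03 over 61 genes, and the bases in both lists were a median of 83.8% of those in either.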

How the data were processed

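The deposited files are 6 lists of enriched regions, 1 per sex and mark, with chromosome, start and end and no other value, so the measurements are positions and widths in base pairs. Per the methods, the authors used Bowtie2 for alignment to mm9 and Bedtools for enrichment. Bowtie and deepTools are named in the processing notes of the submitters. Region caller, threshold, use of IgG and input, and pooling of lines: not given in the sources used here. Region edges fall every 200 bp. BED starts were read as 0-based and are printed 1-based, and 4 regions reach up to 79 bp past the end of a chromosome. All columns of the lists were used, and 0 columns of per-sample values were left out.

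The annotation was GENCODE M1 (NCBIM37, an equivalent of mm9), with 22367 protein-coding models. Regions were counted at a gene from an overlap of 1 bp. The members, the lists of other genes and the summaries were chosen with earlier results of these data known. Genes of the other lists that were not matched by name were left out, and some items are not reported here. Named with values are members that lack H3K27Me3, have a mark in 1 list only, have H3K27Ac over the 5′ end, share a region, or are among the 5 widest, narrowest or most different in width, and the remaining members are given by width. Alternatives were windows of 2 and 50 kb, the 5′ end as the only TSS, the widest 50% of the regions in a list, lists shortened to equal length, regions merged up to 1 or 5 kb apart, and covered bases. No test was made, since each sex and mark has 1 list. Scripts used Python 3.11.15, numpy 2.4.6, pandas 2.3.3 and scipy 1.17.1. Overlaps were tested on simulated data (800 of 800 correct), and the member counts of all 6 lists equalled those of Bedtools 2.31.1.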

Additional observations from a re-analysis of the deposited data

How the results depend on the processing

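Of 81 values recomputed under the alternatives for 21 counts and medians, 16 counts moved by over 1.5-fold, and no median width did. The number of members with H3K27Ac was 2 (XX) and 5 (XY) within 2 kb of the 5′ end, 24 (XX) and 24 (XY) within 50 kb, and 4 (XX) and 3 (XY) in the widest 50% of each list. XX-only H3K27Ac lay at 1 member within 2 kb, Irx5, and at 5 within 50 kb, without Irx5 among them, and XY-only H3K27Ac at 5 within 50 kb. With lists of equal length the XX-only members were again Irx5 and Msx1 and the XY-only ones Irx1, Irx2 and Irx3. In the widest 50% of each list Irx3 and Irx5 kept their one-list H3K27Ac, Irx1 and Irx2 had none, H3K27Ac covered the 5′ end of 2 members in XY, and 0 members had XX-only H3K27Me3. H3K4Me1 was XX-only at 3 members and XY-only at 3 within 2 kb, and XX-only at 2 and XY-only at 5 in the widest 50%. Over the gene and 5 kb either side, H3K27Me3 covered more bases in XX at 9 members and in XY at 16. Joining H3K27Me3 regions up to 1 kb apart brought Six3, Irx3, Pax9 and Vax1 within 1.5-fold and put Lhx3, Dlx3, Dlx4, Six2 and Emx1 outside it, each wider in XY. Depth and peak height cannot be seen in these lists, so the precision of a call is unknown. No paired analysis was possible because no result comes from a test.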

Other observations

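At the long Pax genes, several H3K27Me3 regions far from the 5′ end overlapped between the lists. They were singled out after seeing the data and are given as a description. Pax2 had one of 15.0 kb (XX) and 14.8 kb (XY) that ended 86.3 kb downstream of the 5′ end in both lists, past the 3′ end of the 82.2 kb gene. Pax3 had one of 11.4 kb (XX) and 14.2 kb (XY) that began 73.3 kb (XX) and 70.1 kb (XY) into the gene. Pax5 had one of 11.4 kb (XX) and 17.6 kb (XY) that began 40.1 kb (XX) and 36.7 kb (XY) in, and another of 8.40 kb (XX) and 11.0 kb (XY) that began 145.9 kb (XX) and 146.3 kb (XY) in.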
